A study of Arabidopsis thaliana with 4 samples.

Results

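Late embryogenesis abundant (LEA) protein genes were followed in dark-grown Arabidopsis thaliana seedlings with and without phytochromes A and B. The family was taken as 52 loci, dehydrins and cold-induced LEA genes included. A locus entered where the array had a probe set annotated to that gene alone, which left 36 loci with 1 probe set each. They stand among 13333 genes with such a probe set and 22746 probe sets in all. The other 16 loci, among them EM1, GEA6 (also called EM6), RAB18, ERD10, ERD14 and LEA14, are not analysed here. Of the 36 genes, 25 were bright enough to be tested and 11 are given as values.

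LEA proteins are small, very hydrophilic proteins, most of them disordered in water, that accumulate as seeds dry and that protect membranes and other proteins against loss of water. In maturing embryos their genes are switched on by abscisic acid (ABA) through transcription factors such as ABI3 and ABI5, and their transcripts are stored in the dry seed and disappear as the seed germinates. Another part of the family is expressed in vegetative tissue, either all the time or when cold, drought or ABA is sensed. Phytochromes are the red and far-red light receptors that promote germination and later control seedling growth in light.

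The wild type was the accession Columbia, and the mutant carried the alleles phyA-211 and phyB-9 in Columbia. Both genotypes went through the same steps. Seeds on 0.8% agar were kept for 5 days at 6 °C, received 1 h of white light at 22 °C to make germination even, and then stayed for 3 days in darkness at 22 °C before harvest of the seedlings. RNA of each genotype was hybridised to 2 Affymetrix ATH1 arrays, on which a set of short probes reports 1 transcript as an intensity. Whether the 2 arrays of a genotype were made from separate cultures is not recorded in the labels, and the p-values below describe spread that may be technical.

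Summed intensity ran from 76027250 to 77974921 over the 4 arrays. Across the 13648 tested probe sets, log2 values of mutant array 1 correlated at 0.90 and 0.886 with those of the wild-type arrays. For mutant array 2 these values were 0.947 and 0.936. The mutant arrays correlated at 0.917 with each other, and the wild-type arrays at 0.950. Mutant array 2 was thus closer to both wild-type arrays than to its own replicate. Results are therefore given with each mutant array by itself as well. No probe set used here was annotated to PHYA or PHYB alone, which leaves the genotype labels unchecked. Of the genes taken as marks of a dark-grown seedling, 3 of 7 had a probe set: ICL, an enzyme of the glyoxylate cycle, PORB, which reduces protochlorophyllide, and the expansin gene EXPA8. All 3 were bright on every array, with a lowest value of 21226.4 for EXPA8 and a range of 132927 to 142038 for ICL.

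A single LEA gene, M17, rose in the mutant at the threshold over all probe sets. Its mean went from 11.94 ± 0.15 in the wild type to 15.68 ± 1.23 in the mutant (SD, n = 2 each) on the scale log2(intensity + 70.1), where 70.1 is a pseudocount that damps the noise of dim probe sets. It was the single member among 25 with an adjusted p under 0.05 in limma with Benjamini-Hochberg adjustment, a share of 0.0953% over all tested probe sets. At the looser mark of p under 0.05 before adjustment, 13 of 25 members (M17 included) had higher values in the mutant, against 4.02% of all tested probe sets. None was lower at that mark in limma (0 of 25, against 3.22% of all). Because RNA came from whole seedlings, more cells carrying a transcript and more transcript per cell cannot be told apart.

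The loci were then sorted by where they are known to be expressed. The sorting used general knowledge of the family but was made with earlier results of these data known, so the class counts below are descriptions. A probe set was present for 17 seed loci, 10 vegetative loci, 2 loci known from both seeds and stressed tissue, and 7 loci that could not be placed. The 14 tested seed genes had a median difference, mutant minus wild type, of 1.70 on the log2 scale, and 12 of them had both mutant arrays above both wild-type arrays, against 20% of all tested probe sets. Of the 14, 11 did so with at least a 2-fold difference, against 1.99% of all. The 7 tested vegetative genes had a median of -0.11, with 1 of 7 without overlap upwards and 2 of 7 without overlap downwards, against 18.3% of all for the latter. Over all tested probe sets the median was 0.0038. With the dim members included, the medians were 1.64 over 17 seed genes and -0.12 over 10 vegetative genes. Every one of the 25 tested members had a wild-type mean above the brightness limit by itself, so none was tested only because of its mutant level. In the other direction, 2 of the 11 dim members, AT4G38410 and AT2G03850, had a wild-type mean above the limit and went untested because of their low mutant values, so the count of lower members depends on that limit.

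**Figure D1:**
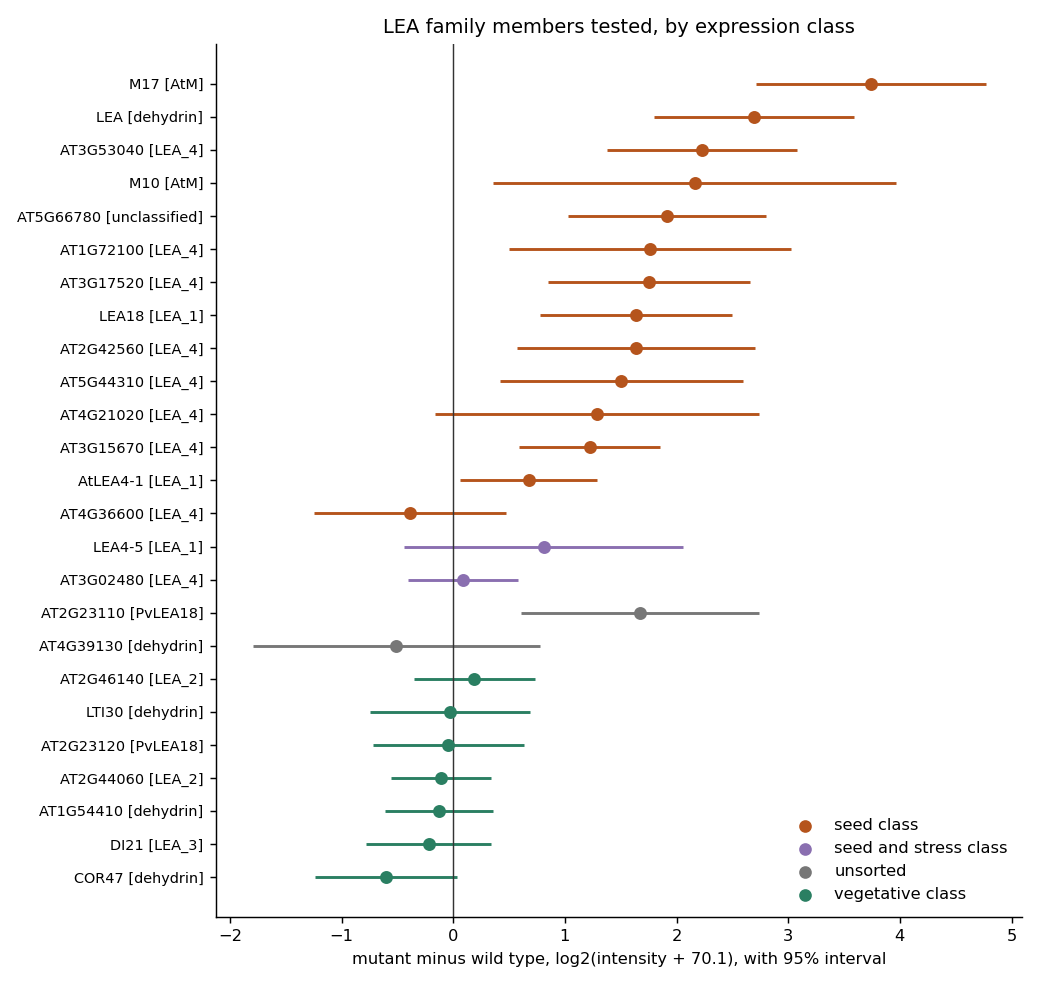
Log2 difference, mutant minus wild type, of each of the 25 tested LEA genes (points) with its 95% interval from limma (lines), coloured by expression class, with the protein group in brackets. Seed class genes run from -0.39 for AT4G36600 to 3.74 for M17, and vegetative class genes from -0.60 for COR47 to 0.19 for AT2G46140.

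M17 and M10 are a pair of small LEA genes known from maturing embryos, and they have no other protein-coding gene between them on chromosome 2. M17 had intensities of 3572 and 4165 on the wild-type arrays and 95816 and 28597 on the mutant arrays. Both mutant arrays stood far above both wild-type arrays, and the ratio of mean intensities was 16.1. The difference was 3.74 on the log2 scale (95% interval 2.71 to 4.77, adjusted p = 0.028, limma), the 8th highest among 13648 probe sets. The call ended when wild-type array 1 or 2 was left out (adjusted p = 0.087 and 0.065, limma), with differences of 3.63 and 3.85. It also ended without the brightness limit (adjusted p = 0.0528, limma), by robust eBayes (0.201) and by eBayes without the trend (0.382).

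For M10 the wild-type intensities were 1564 and 1944, and the mutant arrays gave 25181 and 2547. The groups did not overlap, but mutant array 2 lay only slightly above the wild type, 0.53 on the log2 scale over its mean, while mutant array 1 lay 3.80 above it. The difference of 2.16 therefore had a wide interval, from 0.36 to 3.97, and did not pass (adjusted p = 0.635, limma). Within an array, M17 minus M10 was 1.16 and 1.07 on the log2 scale in the wild type and 1.92 and 3.45 in the mutant. The gap between these neighbours was thus wider on both mutant arrays (two-sided exact permutation p = 0.333, the smallest that 2 arrays against 2 allow).

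Dehydrins carry a conserved lysine-rich segment that forms a helix on membranes, and the 6 measured ones differ in where they are known to act. LEA (AT2G21490), a dehydrin of seeds, had 2478 and 2059 in the wild type and 24333 and 9252 in the mutant. The mutant intensities on both arrays were several times those of the wild type, with a difference of 2.70 (95% interval 1.80 to 3.59) that lay just outside the threshold (adjusted p = 0.060, limma). Mutant array 1 lay 3.39 and mutant array 2 2.00 above the wild-type mean. Under median scaling of the arrays LEA passed (adjusted p = 0.039, limma). It lay further from the threshold by robust eBayes (adjusted p = 0.081, limma), without the brightness limit (0.118), without wild-type array 1 or 2 (0.127 and 0.262) and by eBayes without the trend (0.484).

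COR47, an acidic dehydrin induced by cold and drought, had 60854 and 59154 in the wild type and 29071 and 53790 in the mutant. Both mutant arrays were lower, by 1.04 on array 1 and 0.16 on array 2, with a difference of -0.60 (95% interval -1.24 to 0.03, adjusted p = 0.70, limma). Most of the difference of COR47 thus rested on mutant array 1. LTI30, a basic dehydrin of cold-treated leaves, had 4202 and 5858 in the wild type and 3618 and 6547 in the mutant. Its groups overlapped fully, and the interval of the difference ran from -0.74 to 0.69. AT1G54410, the histidine-rich metal-binding dehydrin HIRD11, had 17547 and 21014 against 16189 and 19069, with an interval from -0.61 to 0.36.

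AT4G38410, a further dehydrin placed with the vegetative genes, had lower values in the mutant. Its intensities were 946 and 1027 in the wild type and 95.9 and 186.7 in the mutant, so that both mutant arrays were far below both wild-type arrays. Its mean over the 4 arrays missed the brightness limit. In a fit of all probe sets without that limit, the difference was -2.35 (95% interval -3.94 to -0.76), with an unadjusted p of 0.0087 and an adjusted p = 0.71 (limma). AT4G39130, a dehydrin that could not be placed in a class, had 872 and 826 in the wild type and 1016 and 313 in the mutant. The mutant arrays lay on both sides of the wild type, and the interval ran from -1.80 to 0.77.

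**Figure D2:**
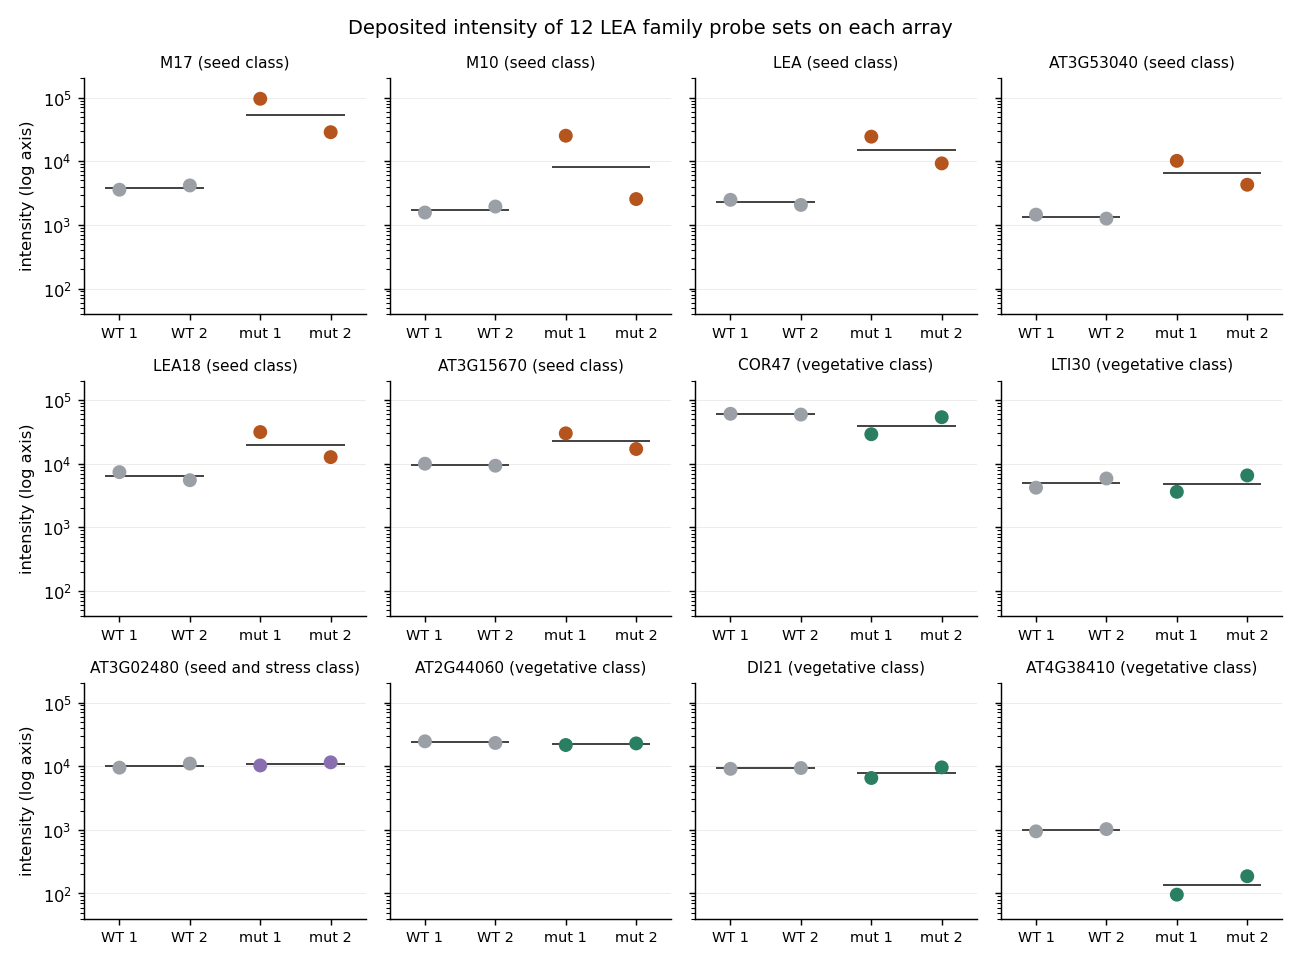
Deposited intensity (log axis) of 12 LEA family probe sets on the wild-type (WT, grey) and mutant (mut, coloured by class) arrays, each point 1 array and each line the geometric mean of a genotype. The 6 seed genes lie above the wild type on both mutant arrays, with array 1 higher than array 2, and AT4G38410 lies below it on both.

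The LEA_4 group holds the most loci, with proteins built of short repeated motifs that fold into helices on drying, and 16 of its genes had a probe set. Of its 9 tested genes, 8 were placed with the seed genes and AT3G02480 with those of both seeds and stress. The highest difference was that of AT3G53040, with 1449 and 1256 in the wild type and 10141 and 4275 in the mutant. It was several-fold higher on both mutant arrays, by 2.23 on the log2 scale (95% interval 1.38 to 3.08, adjusted p = 0.092, limma). AT3G17520 had 3507 and 4672 against 22450 and 8507, a difference of 1.75. AT1G72100 had 1501 and 1609 against 11573 and 2530, a difference of 1.76. Both were higher on each mutant array, and for AT1G72100 mutant array 1 alone carried most of the difference, at 2.84 against 0.68 on array 2.

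AT3G15670 had 9999.5 and 9306 in the wild type and 29990 and 17029 in the mutant. The wild-type arrays lay close together and the mutant arrays 0.81 apart on the log2 scale, and the difference of 1.22 had an interval from 0.59 to 1.85. AT5G44310 had 1018 and 665 against 4263 and 1417, with an interval of the difference from 0.42 to 2.59. AT2G42560 had 1716 and 503 against 3321 and 2843, a difference of 1.64. In AT2G42560 the spread sat in the wild type, where the arrays were 1.64 apart on the log2 scale, and the mutant arrays were only 0.22 apart. Its difference was 2.45 without wild-type array 1 and 0.82 without wild-type array 2.

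A pair of LEA_4 genes placed with the seed class did not share this pattern. AT4G21020 had 948 and 1620 in the wild type and 7346 and 1317 in the mutant, so that array 2 lay between the wild-type arrays and array 1 far above. AT4G36600 had 1598 and 1927 against 1934 and 903, with mutant array 1 just above the wild type and array 2 below both, and its difference was -0.39 (95% interval -1.24 to 0.47). AT3G02480, which is induced by ABA and water stress, had 9482.5 and 10995 against 10268 and 11489. Its groups overlapped and its interval was narrow, from -0.40 to 0.58.

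The chloroplast proteins COR15A and COR15B, which stabilise membranes during freezing, belong to the same LEA_4 group and were dim. COR15A had 66.6 and 230.6 in the wild type and 260.5 and 47.0 in the mutant, and COR15B had 192.3 and 454.8 against 315.0 and 196.8. In both genes each genotype had a high and a low array, and no direction was seen. Of the remaining dim LEA_4 genes, AT2G18340 of the seed class differed by -0.01, and the 4 unplaced genes AT2G03740, AT2G03850, AT2G33690 and AT4G13230 ran from -1.32 to 0.68. All 5 had overlapping groups. AT2G03850 and AT4G13230 were both low on mutant array 1, at 51.9 and 47.9, while mutant array 2 gave 781.9 and 468.4, inside the range of the wild-type arrays.

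All 3 listed genes of the LEA_1 group, whose proteins protect enzymes during water loss, were measured. LEA18 (AT2G35300, also LEA4-2) had 7375 and 5506 in the wild type and 31425 and 12697 in the mutant, a difference of 1.64 (95% interval 0.78 to 2.49, adjusted p = 0.28, limma). AtLEA4-1 had 6353 and 5550 against 12099 and 7485, a difference of 0.67 with an interval from 0.06 to 1.29. Both seed genes were higher on each mutant array, LEA18 by the larger amount. LEA4-5, which responds strongly to water deficit in vegetative tissue as well, had 3374 and 4151 against 14062 and 3089. Mutant array 1 was thus well above and array 2 below both wild-type arrays, and the interval of its difference, 0.81, ran from -0.44 to 2.06.

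AT5G66780, a seed gene not assigned to a protein group here, had 3993 and 5254.5 in the wild type and 28087 and 10810 in the mutant. Both mutant arrays were clearly higher, with a difference of 1.91 (95% interval 1.02 to 2.80, adjusted p = 0.186, limma). The seed maturation protein (SMP) genes AT3G22490 and AT5G27980 were too dim to be tested. AT3G22490 had 309.6 and 22.7 against 3840 and 134.4, so only mutant array 1 was above the wild type. AT5G27980 had 30.2 and 194.5 against 227.3 and 607.5, higher on both mutant arrays, and array 2 was above array 1, unlike in the other seed genes.

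PvLEA18 proteins, named after a bean protein, are represented by the adjacent genes AT2G23110 and AT2G23120 on chromosome 2. AT2G23110, which could not be placed in a class, had 1180 and 2189 in the wild type and 8994 and 3080.5 in the mutant, a difference of 1.67 (95% interval 0.60 to 2.74). Its neighbour AT2G23120 of the vegetative class had 16487 and 13176 against 10465 and 19460, with overlap and a difference of -0.05. The gap between the neighbours within an array, AT2G23110 minus AT2G23120, was -3.73 and -2.55 in the wild type and -0.22 and -2.63 in the mutant. Mutant array 1 differed here and array 2 did not leave the wild-type range (two-sided exact permutation p = 0.667).

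LEA_3 and LEA_2 genes showed small differences. DI21, a drought-induced gene of the LEA_3 group, had 9085 and 9354 in the wild type and 6522 and 9572 in the mutant, with an interval from -0.78 to 0.34. The other LEA_3 gene, AT3G53770, was dim, with 1 high and 1 low array in each genotype (392.0 and 42.7 against 464.3 and 44.7). The LEA_2 proteins differ from the rest of the family in having a stable fold. AT2G44060 had 24562 and 23149 against 21501 and 22780, and AT2G46140 had 2881 and 2775 against 3089 and 3384. Neither set of groups overlapped, the first lower and the second higher in the mutant, but the differences of -0.11 and 0.19 were small, with intervals from -0.56 to 0.34 and from -0.35 to 0.73. Across all 7 tested vegetative genes, which leave out AT4G38410, the intervals reached no lower than -1.24 and no higher than 0.73.

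Contrasted on each mutant array, the medians of seed and vegetative genes lay apart on both, and further on array 1. On mutant array 1, the median over the 14 tested seed genes was 2.48 above the wild-type mean and that over the 7 vegetative genes 0.45 below it (-0.45), which puts the classes 2.92 apart. On mutant array 2 the medians were 0.90 and 0.05, or 0.85 apart. Between the wild-type arrays the same medians, array 2 minus array 1, were -0.0033 and -0.041. On mutant array 1 the tested seed genes ran from 0.135 (AT4G36600) to 4.61 and the tested vegetative genes from -1.04 to 0.125 (AT2G46140). These ranges did not overlap but nearly touched. With dim genes counted the classes overlapped there, as the vegetative gene COR15A lay at 0.71 and the seed gene AT2G18340 at 0.47. On mutant array 2 the tested genes overlapped, with seed genes from -0.91 (AT4G36600) to 2.87 and vegetative genes from -0.16 to 0.40. The difference between the classes was not tested.

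The mutant arrays also ordered the classes in opposite ways. All 14 tested seed genes were higher on mutant array 1 than on mutant array 2, by 0.22 for AT2G42560 to 3.27 for M10, with a median of 1.38. For the 7 tested vegetative genes the order was the reverse in every case, with array 1 minus array 2 at a median of -0.55. Over all tested probe sets, 47.3% were higher on mutant array 1. Each of these gaps is between 2 single arrays of 1 genotype and carries no test. The spread between replicates was larger in the mutant for 13 of 14 seed genes, with a median SD of 0.98 against 0.20 in the wild type. It was also larger there for 5 of 7 vegetative genes, with medians of 0.39 and 0.06. Over all tested probe sets it was larger in the mutant for 7745 of 13648, with medians of 0.24 and 0.19.

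**Figure D3:**
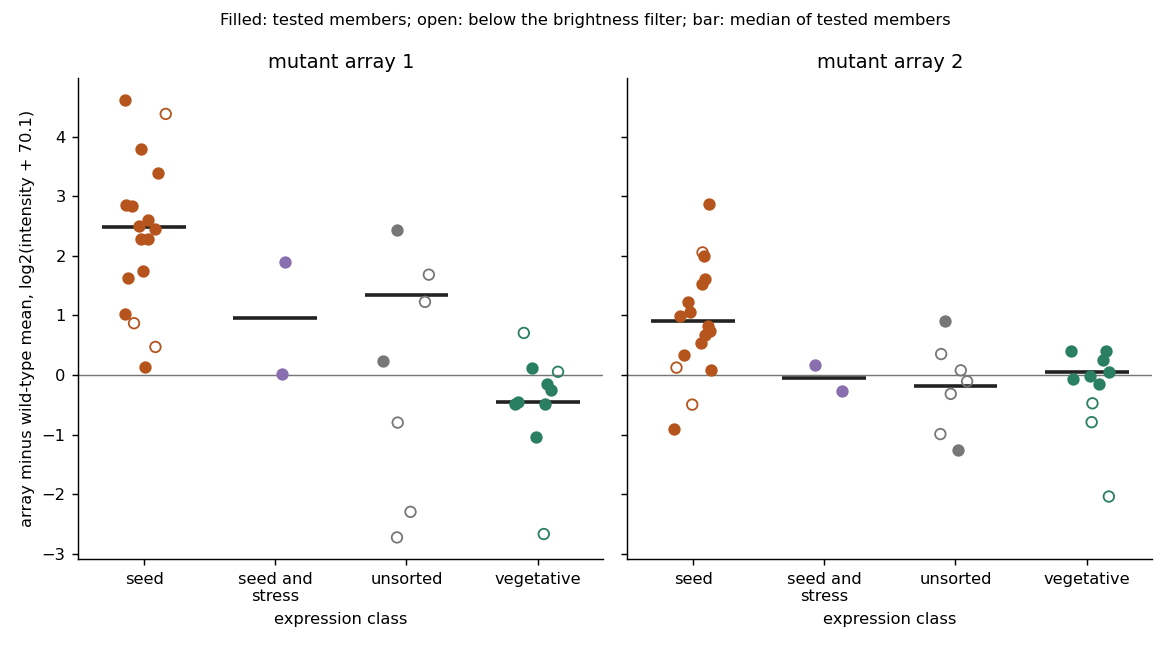
Log2 value of each LEA gene on mutant array 1 (left) and mutant array 2 (right) minus its wild-type mean, by expression class, with filled points for tested genes, open points for dim ones and bars for medians of tested genes. The seed median is 2.48 on array 1 and 0.90 on array 2, and the vegetative median -0.45 and 0.05.

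Counts of calls followed the array used. With mutant array 1 alone against the wild type, 14 members rose and COR47 fell at an adjusted p under 0.05 (limma), where 3.09% of all tested probe sets were called. These 15 were 12 of 14 seed genes, all but AT2G42560 and AT4G36600, together with LEA4-5, AT2G23110 and COR47. With mutant array 2 alone, M17 (adjusted p = 3.4e-04, limma) and LEA (0.0076) rose, where 0.278% of all were called. Without wild-type array 1, 0 members passed (limma), where 0.044% of all were called, and 11 were higher at an unadjusted p under 0.05, against 3.39% of all. Without wild-type array 2, 0 members passed (limma), where 0.0586% of all were called, and 10 were higher at that mark, against 2.47% of all. Each of these fits takes the spread of a genotype left with 1 array from the other genotype.

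Embryo storage protein transcripts are set beside the seed LEA genes here. Of 16 storage and oil body genes, 5 had a probe set, and their summed intensity was 23611 and 22826 on the wild-type arrays, 203130 on mutant array 1 and 73307 on mutant array 2. The sum over the 17 seed LEA genes was 47595 and 46331 in the wild type and 312225 and 111018 in the mutant. Both sums were thus highest on mutant array 1 and next on mutant array 2. PAP85, a vicilin-like storage protein gene, was the 1 storage gene of 5 past the threshold (3.29, adjusted p = 0.0237, limma), against 0.0953% of all tested probe sets. AT2G28490 and OLEO5 (AT3G01570) differed by 3.33 and 2.96 (adjusted p = 0.084 and 0.090, limma). Their mutant array 1 lay 2.08 and 1.91 above mutant array 2. Both mutant arrays were above both wild-type arrays for 4 of the 5, against 20% of all. Of these 4, AT1G03890 had a wild-type mean of 9.34 on the log2 scale, below the brightness limit of 9.39. It was tested only because of its mutant values, so its place in this count is not independent of the limit. OLEO3, an oleosin gene, overlapped at 0.23, with mutant array 2 at -0.10 from the wild-type mean. AT1G03890, a cupin storage protein gene, had the reverse order of the mutant arrays, 0.85 above the wild-type mean on array 1 and 1.27 on array 2. The gap between mutant arrays 1 and 2 had a median of 1.25 over the storage genes and 1.38 over the seed LEA genes. The lowest wild-type values among the 5 storage probe sets were 531.0 and 627.6, for AT1G03890, around the brightness limit, which equals an intensity of 601.7. Germination was not scored in the labels, and the part of seeds that had not germinated was not tested.

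Neither the vegetative LEA genes nor the seedling marks followed that order. The summed intensity of the 10 vegetative LEA genes was 136823 and 136192 in the wild type, 91126 on mutant array 1 and 135033 on mutant array 2, sums that are weighted towards the bright probe sets. The sum over ICL, PORB and EXPA8 was 228334 and 225547 in the wild type and 254897 and 224189 in the mutant. Its parts moved differently. PORB had 59614.5 and 63173 in the wild type and 100743 and 62061.5 in the mutant, so mutant array 1 stood above the rest. EXPA8 had 26681.5 and 24234 against 21226 and 22325, lower on both mutant arrays. The adjusted p-values of these 3 genes lay between 0.764 and 0.974 (limma), and 0 had an unadjusted p under 0.05.

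**Figure D4:**
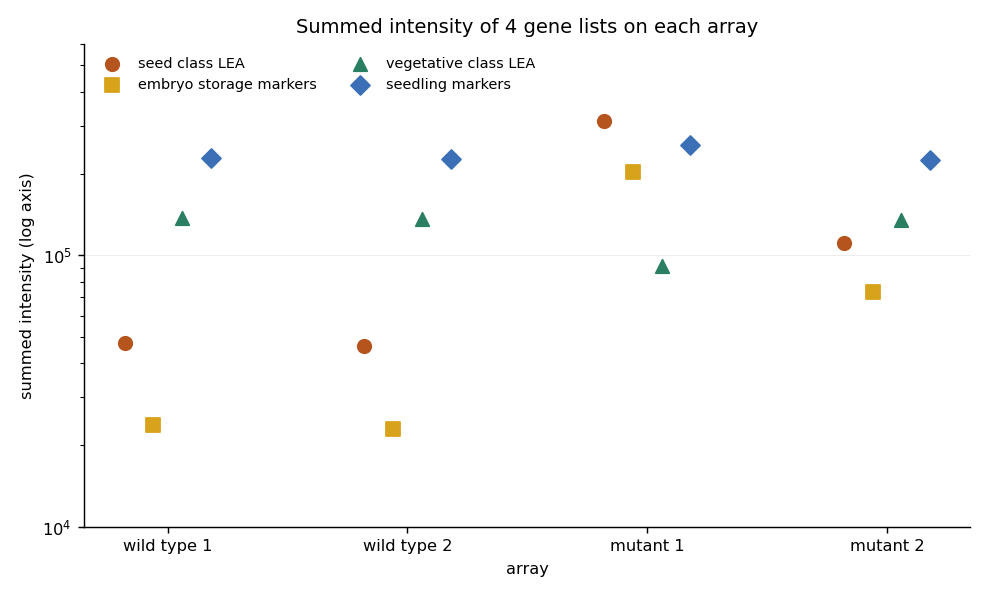
Summed intensity (log axis) on each array of the 17 seed class LEA genes, 5 embryo storage genes, 10 vegetative class LEA genes and 3 seedling marks. The seed LEA and storage sums are highest on mutant array 1, at 312225 and 203130, and the vegetative LEA sum is lowest there, at 91126.

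Little of the pathway that drives LEA genes was measured. Among 19 seed maturation and ABA response factors, EEL and BZIP53 had a probe set. EEL, a bZIP factor that binds the promoter of the LEA gene EM1 in maturing seeds, had 1151 and 1437 in the wild type and 5301 and 2782 in the mutant, higher on both mutant arrays by 1.53 (95% interval 0.77 to 2.29, adjusted p = 0.23, limma). BZIP53, which pairs with other bZIP factors there, had 7471 and 7449 against 5600 and 6202, lower on both by -0.34 (adjusted p = 0.755, limma). Of 9 genes for small heat shock proteins and their seed factor, ATHSP22.0 was tested and differed by 0.51 with overlap, and AT1G53540 was dim and differed by 0.86 with overlap. The lists of 26 ABA synthesis and signalling genes, 6 cold and drought regulators and 14 genes induced by cold, drought or ABA outside the family had 0 genes with a probe set annotated to them alone, and are not analysed here.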

How the data were processed

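RNA was purified with an RNeasy kit for plants and labelled as Affymetrix directs, per the labels' protocols. The authors deposited linear intensities, 1 for each probe set on an array. The sources used here do not give the software, scaling target or detection calls. These intensities had been scaled by the authors: means trimmed by 2% at each end differed by 0.0946% over the arrays, and that scaling was kept. Values were transformed as log2(intensity + 70.1), the 10th percentile of all values, which makes differences of dim probe sets smaller than their true size. A test was run on 13648 of 22746 probe sets, the brightest 60% by mean, in limma 3.58.1 under R 4.3.3 (lmFit and eBayes with an intensity trend, 9.2 degrees of freedom in total), adjusted by Benjamini-Hochberg over all of them at 0.05. The procedure was tested on simulated data in which both genotypes had equal spread and spread did not depend on brightness. That test cannot judge genes whose spread differs between genotypes, as in the seed class. The number of arrays limits the precision, and an exact permutation of 2 arrays against 2 cannot go below a two-sided p of 0.333. Replicate 1 of the wild type had no number in its label.

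Gene names follow GEO's platform annotation, whose symbols can be out of date, joined to RefSeq (assembly TAIR10.1), which matched 13484 of 13513 probe sets with 1 gene. Another 503 had several genes and 8730 were not listed. RefSeq also gave which genes are neighbours, and no coordinates are printed because the files name no build. No sequences were used here, so the planned motif search in promoters was not run.

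Members, expression classes and the 7 pathway lists of 97 genes, 12 with a probe set, were chosen with earlier results of these data known. Values on each array are given for members past the threshold, those with an unadjusted p under 0.05, and the extremes of each class and protein group, with the others in ranges or added after their values were seen. Pathway genes named are the 2 highest and 2 lowest of a list, and for the storage list all 5 genes with a probe set. Figures were drawn with matplotlib 3.10.9.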

Additional observations from a re-analysis of the deposited data

How the results depend on the processing

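The count of 1 member past the threshold (M17) was 1 under quantile normalization, cyclic loess, both other pseudocounts and the brightest 40%. It was 2 under median scaling, where LEA joined. Over all tested probe sets, 13 passed in the main fit, 9 to 15 under the former alternatives and 18 under median scaling. The count of members was 0 without the brightness limit, by eBayes without the trend and by robust eBayes. There M17 had an adjusted p of 0.0528, 0.382 and 0.201 (limma), and 3, 1 and 10 probe sets passed over all. At an adjusted p under 0.10 in the main fit, 3 members passed, against 31 of 13648 probe sets. By 2-fold difference without overlap and no test, 12 members were higher and 0 lower, against 271 and 130 of all tested. Leaving out single arrays gave counts between 0 and 15. With arrays left out, the median difference ran from 0.90 to 2.48 for seed genes and from -0.45 to 0.05 for vegetative genes. Under the other alternatives it ran from 1.62 to 1.75 and from -0.17 to -0.01, within 1 SD between the mutant arrays. For a mutant array left out, that SD cannot judge the shift, because it comes from the same 2 arrays. For single members, 327 values kept their side of the threshold over the alternatives, 5 calls of M17 were lost, 16 calls were gained, 14 of them on mutant array 1 alone, and 0 called values reversed, while 11 differences of members not called changed sign. Each gene had 1 probe set, so averaging probe sets changed nothing. No paired analysis was possible because only 1 replicate number is shared by both genotypes in the labels. Searches for the ABRE, RY and CRT motifs and their alternative were not run. Without a measure of background, the values of the 11 dim members have unknown precision.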
